A study of Mus musculus with 40 samples.

Results

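The gene set studied here holds the MYC transcription factor genes, their partner *Max*, and nucleolar and biosynthetic genes known as MYC targets. Its 40 members were chosen as a list of mouse symbols, and all 40 were found among the 55487 genes of the count table. By role, 4 members are the MYC family (*Myc*, *Mycn*, *Mycl* and *Max*), 3 are nucleolar scaffold proteins (*Ncl*, *Npm1* and *Mybbp1a*), and 2 are subunits of RNA polymerase I (*Polr1a* and *Polr1b*). A further 12 act in assembly of the large ribosomal subunit (*Nop2*, *Nop16*, *Pa2g4*, *Rrs1*, *Bop1*, *Wdr12*, *Pes1*, *Ppan*, *Ddx21*, *Gnl3*, *Mrto4* and *Nip7*) and 7 in processing of the small subunit (*Rrp9*, *Rrp12*, *Noc4l*, *Utp20*, *Imp4*, *Rcl1* and *Tsr1*). The last 2 roles are small nucleolar ribonucleoproteins (snoRNPs), with 7 members (*Nop56*, *Nop58*, *Fbl*, *Dkc1*, *Nolc1*, *Gar1* and *Nhp2*), and biosynthesis and other functions, with 5 (*Srm*, *Odc1*, *Cad*, *Ranbp1* and *Phb2*).

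RNA was measured in mouse cells grown from a non-commercial embryonic stem cell line made from B6.Cg-Tg(Hlxb9-GFP)1Tmj/J mice, which carry eGFP under the Hb9 promoter, a promoter of motor neurons. Retinoic acid and a smoothened agonist patterned the cells; ES-astrocytes were propagated with bFGF and EGF and matured with forskolin, and ES-motor neurons were sorted on eGFP and plated onto ES-astrocytes. ES-astrocytes received IL-1α with TNF-α, C1Q with C5, IL-1β with IL-6, or TGF-β2 for 24 hours, or served as controls, and the ES-motor neuron libraries carry the same 5 treatment labels. Each of the 10 groups, 1 per cell type and treatment, had 4 libraries (A to D) labelled as biological replicates, each from about 200 sorted cells, with polyA cDNA fragmented by Tn5.

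MYC proteins bind DNA as dimers with MAX, at E-box sequences, and drive genes for ribosome production, nucleotide and polyamine synthesis and cell growth. Ribosomes are made in the nucleolus, where RNA polymerase I transcribes the long ribosomal RNA precursor and snoRNPs modify it before processing factors build the small and large subunits. In the nervous system MYCN is known for driving the division of neural progenitors, and ribosome production is lower in many cells that have left the cell cycle.

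Library depth differed between the cell types. Total counts ran from 1510823 to 16054290 in ES-astrocytes (median 4670241.5) and from 6557 to 19717324 in ES-motor neurons (median 1213482), and 9 ES-motor neuron libraries lay under 20% of the median of all 40. These were all 4 IL-1α with TNF-α libraries, control C, C1Q with C5 A, IL-1β with IL-6 B and D, and TGF-β2 A. Levels are given as counts per 1000000 (CPM) of the library size scaled by trimmed mean of M values (TMM). A count of 0 allows up to 3 counts, which was 0.187 to 1.99 CPM of the raw total in ES-astrocytes and 0.152 to 458 CPM in ES-motor neurons. Such floors cover counting error only. At least 1 count was found for 34 to 40 members in an ES-astrocyte library (median 37) and for 12 to 40 in an ES-motor neuron library (median 34).

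A few libraries stood apart from their group. ES-astrocyte control A had *Npm1* at 938 CPM, *Phb2* at 332, *Srm* at 281 and *Bop1* at 99.8, each above the other 3 control libraries, and its astrocyte marker sum of 633 CPM lay below their 2491 to 3281. ES-astrocyte C1Q with C5 D had *Ranbp1* at 666 CPM and the lowest sum over all 40 members among ES-astrocyte libraries, 3376 CPM. ES-motor neuron C1Q with C5 A held only 6557 counts and detected 12 members. Control and IL-1α with TNF-α libraries carried plate index 1 (plate 1) and the other 3 stimuli plate index 2 (plate 2). The labels do not state what kind of plate this index refers to. Those 3 stimuli and the plate index cannot be told apart in comparisons with control. ES-astrocytes carried the second index primers S337 and S339 and ES-motor neurons S338 and S340, so cell type and primer cannot be told apart.

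The cell type labels were checked against marker genes. *Fabp7*, a radial glia and astrocyte fatty acid carrier, was at 558, 2315, 1869.5 and 2348 CPM in control ES-astrocytes A to D and at 28.9, 24.9, 3.84 and 20.5 in control ES-motor neurons. *Mnx1*, the gene of the Hb9 protein, was at 21.2, 2.98, 0 and 0.171 CPM in control ES-astrocytes and at 1647, 1763, 715 and 539 in control ES-motor neurons. The groups did not overlap for either gene. Of 12 astrocyte markers, *Aqp4*, *Gfap* and *Aldh1l1* were at 0 in all 20 ES-astrocyte libraries, while *Sox9* was at 502, 145, 181 and 329 CPM in control ES-motor neurons against 16.9, 143, 58.3 and 115 in control ES-astrocytes. *Slc1a2*, a glutamate transporter of astrocytes, had lowest, median and highest levels of 27.6, 107 and 295 CPM in ES-astrocytes and 0, 12.8 and 64.2 in ES-motor neurons. ES-astrocyte libraries thus held counts of some astrocyte markers and none of *Aqp4*, *Gfap* and *Aldh1l1*. *Gja1* was at 0 in 1 ES-astrocyte library and at 0.107 CPM in control A. The summed level of 10 fibroblast markers was 127, 1124, 303 and 306 CPM in control ES-astrocytes, *Dcn* being the most abundant, and 0, 3.42, 0 and 0.477 CPM in control ES-motor neurons, with *Postn* at 0 in all 40 libraries. Microglia markers summed to at most 11.8 CPM in an ES-astrocyte and 21.8 in an ES-motor neuron library, where *Aif1*, *Ptprc*, *Trem2* and *C1qa* were at 0 in all 40.

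Per kilobase of exon, *Ranbp1*, which assists RAN in nuclear transport, had the highest level among the members, with a median of 1368 CPM per kb over the 20 ES-astrocyte libraries and 988 over the 20 ES-motor neuron libraries. Next in ES-astrocytes came *Nhp2*, a core protein of H/ACA snoRNPs, at 237 CPM per kb, and *Npm1*, an abundant nucleolar chaperone, at 197. *Odc1*, the rate-limiting enzyme of polyamine synthesis, followed at 81.5 CPM per kb, then *Nop16* at 55.0 and *Pa2g4* at 51.3. Exon length was the merged length of all annotated exons of a gene, which can exceed that of the transcripts measured. *Ncl*, with a merged length of 10188 bases, had an ES-astrocyte median of 284.5 CPM, above the 277.6 of *Odc1*, but 27.9 CPM per kb. The order per kb thus depends on this length. In ES-motor neurons *Nhp2* was at 158, *Npm1* at 108, *Nop16* at 41.5 and *Odc1* at 20.3 CPM per kb, so the order of the *Odc1* and *Nop16* medians differed between the cell types, with overlapping ranges in both. The lowest medians in ES-astrocytes were those of *Polr1a*, the large catalytic subunit of RNA polymerase I, at 0.430 CPM per kb, and *Cad*, which starts pyrimidine synthesis, at 0.656. *Rrp12*, *Noc4l* and *Utp20* had a median of 0 in ES-motor neurons. The 40 members summed to 3376 to 6336 CPM in ES-astrocytes (median 5002) and 1549 to 3823 in ES-motor neurons (median 3575), and *Ranbp1* alone made up 31.5, 49.6, 51.1 and 47.8% of that sum in control ES-astrocytes.

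Among the MYC genes, the median order per kb in ES-astrocytes was *Mycl* (9.42 CPM per kb), *Max* (5.50), *Mycn* (5.35) and *Myc* (4.26), and in ES-motor neurons *Mycn* (15.3), *Mycl* (4.27), *Myc* (3.18) and *Max* (2.35). The ranges over libraries overlapped between all 4 genes in both cell types. *Mycn* was at 15.3, 20.3, 28.0 and 42.1 CPM in control ES-astrocytes A to D and 49.7, 51.4, 46.1 and 37.2 in control ES-motor neurons. Control ES-astrocyte D lay above control ES-motor neuron D, so the control groups overlapped. With TGF-β2, *Mycn* was at 13.1, 6.69, 10.8 and 29.2 CPM in ES-astrocytes and 66.2, 70.0, 128 and 84.7 in ES-motor neurons, with no overlap. In the other 3 treatments the groups overlapped. ES-motor neuron C1Q with C5 A had no *Mycn* count, but its floor was 202 CPM of the TMM-scaled library size, and B to D were at 128, 91.1 and 107. *Myc* itself was at 1.17, 11.8, 0 and 0.171 CPM in control ES-astrocytes and 3.61, 14.6, 3.84 and 0 in control ES-motor neurons, low and uneven in both, with 0 counts in 4 of 20 ES-astrocyte and 5 of 20 ES-motor neuron libraries. *Mycl*, the L-MYC gene, was at 48.1, 11.5, 84.1 and 10.3 CPM in control ES-astrocytes and 10.8, 44.1, 23.0 and 17.2 in control ES-motor neurons. *Max* was at 64.3, 0, 22.6 and 26.3 CPM in control ES-astrocytes and 12.7, 25.3, 11.5 and 17.6 in control ES-motor neurons. For both genes the control ES-motor neurons lay inside the range of the control ES-astrocytes.

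Across the treatments of ES-astrocytes, *Mycn* was at 9.01 to 37.2 CPM with IL-1α and TNF-α, 6.81 to 57.0 with C1Q and C5, and 6.84 to 40.6 with IL-1β and IL-6. In ES-motor neurons it was at 23.6 to 69.2, 0 to 128 and 18.99 to 105 CPM with these stimuli. The range of each of these 6 groups overlapped that of the control group of its cell type. With TGF-β2 all 4 ES-motor neuron libraries were above the highest control, 51.4 CPM, while the ES-astrocyte libraries overlapped their controls. The edgeR log2 fold change of that ES-motor neuron comparison was 0.92 ± 0.42 (adjusted p = 0.999), a comparison in which *Mycn* was named after its values were seen. *Myc* was at 0 to 31.7, 0 to 13.8 and 0 to 21.8 CPM in ES-astrocytes and 0 to 29.5, 0 to 18.3 and 0 to 25.7 in ES-motor neurons with the same stimuli, each group holding a library at 0. *Mycl* had lowest, median and highest levels of 5.67, 38.0 and 114 CPM in all ES-astrocyte and 0, 17.2 and 62.0 in all ES-motor neuron libraries, and *Max* had 0, 19.8 and 64.3 CPM in ES-astrocytes and 0, 8.46 and 76.7 in ES-motor neurons. Over 5 treatments neither *Myc* (0.29 ± 0.61, adjusted p = 0.832), *Mycl* (−0.80 ± 0.42, adjusted p = 0.209) nor *Max* (−0.46 ± 0.54, adjusted p = 0.663) passed the edgeR test between cell types, given as log2 fold change of ES-motor neurons against ES-astrocytes with its standard error.

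Which members differed between the cell types was asked across the 5 treatments in a fit that also held a treatment effect, with 20 libraries in each cell type. A gene counted as called when its edgeR quasi-likelihood p, adjusted by Benjamini-Hochberg, did not exceed 0.05 and its log2 fold change lay beyond 1 in either direction. Positive values mean higher in ES-motor neurons. All 40 members passed the filter on low counts, and 4 were called, against 14.9% of the 13227 genes tested. *Mycn* was the member called as higher in ES-motor neurons (1.45 ± 0.29, log2 fold change and its standard error, adjusted p = 0.000162). *Odc1* (−1.88 ± 0.19, adjusted p = 4.43e-11), *Rrs1*, a large subunit assembly factor (−2.15 ± 0.43, adjusted p = 0.000128), and *Dkc1*, the pseudouridine synthase of H/ACA snoRNPs (−1.56 ± 0.30, adjusted p = 8.53e-05), were lower. Calls of these 4 members held in each fit without the libraries of 1 letter and without the 9 shallow libraries. At the adjusted p alone 10 members passed, against 18.7% of genes tested, the others being *Npm1* (−0.81), *Nop58* (−0.85), *Ncl* (−0.54), *Ranbp1* (−0.56), *Pa2g4* (−0.80) and *Nhp2* (−0.59), all lower in ES-motor neurons; these 6 were chosen after their values were seen. Without the shallow libraries 6 passed it, and *Ncl*, *Pa2g4*, *Nhp2* and *Ranbp1* did not (adjusted p = 0.0658, 0.0977, 0.165 and 0.199). Without the libraries of letter B *Pa2g4*, *Nhp2* and *Ranbp1* did not pass (0.613, 0.0728 and 0.0573), nor did *Nhp2* without letter A (0.0909). Over all alternatives the adjusted p ranged 3.94e-06 to 0.0658 for *Ncl*, 0.000101 to 0.613 for *Pa2g4*, 5.66e-05 to 0.165 for *Nhp2* and 5.76e-06 to 0.199 for *Ranbp1*. The log2 fold change was below 0 for 37 of 40 members (92.5%), against 60.5% of genes tested. Its median was −0.70 against −0.21 over all genes tested, and −0.46 against −0.08 without the shallow libraries. DESeq2 called 5 members, these 4 and *Fbl*, and limma-voom 5, these 4 and *Pa2g4*. Among all genes DESeq2 called 1846 of 28630, 575 higher and 1271 lower, and limma-voom 3107 of 13227, 2219 higher and 888 lower, against 511 higher and 1461 lower with edgeR. With limma-voom the log2 fold change was below 0 for 30 members (75%, against 34.1% of genes), with a median of −0.43 against 0.38. With DESeq2 it was below 0 for 38 (95%, against 29.3% of genes), with a median of −0.72 against 1.33. The DESeq2 fit kept every gene with at least 1 count, 28630 against 13227 past the filter. Its values and calls over all genes are thus of a wider set, with many genes of low counts, and are not comparable with those of edgeR and limma-voom. In bulk samples, fewer cells of a type and less RNA per cell cannot be told apart.

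**Figure D1:**
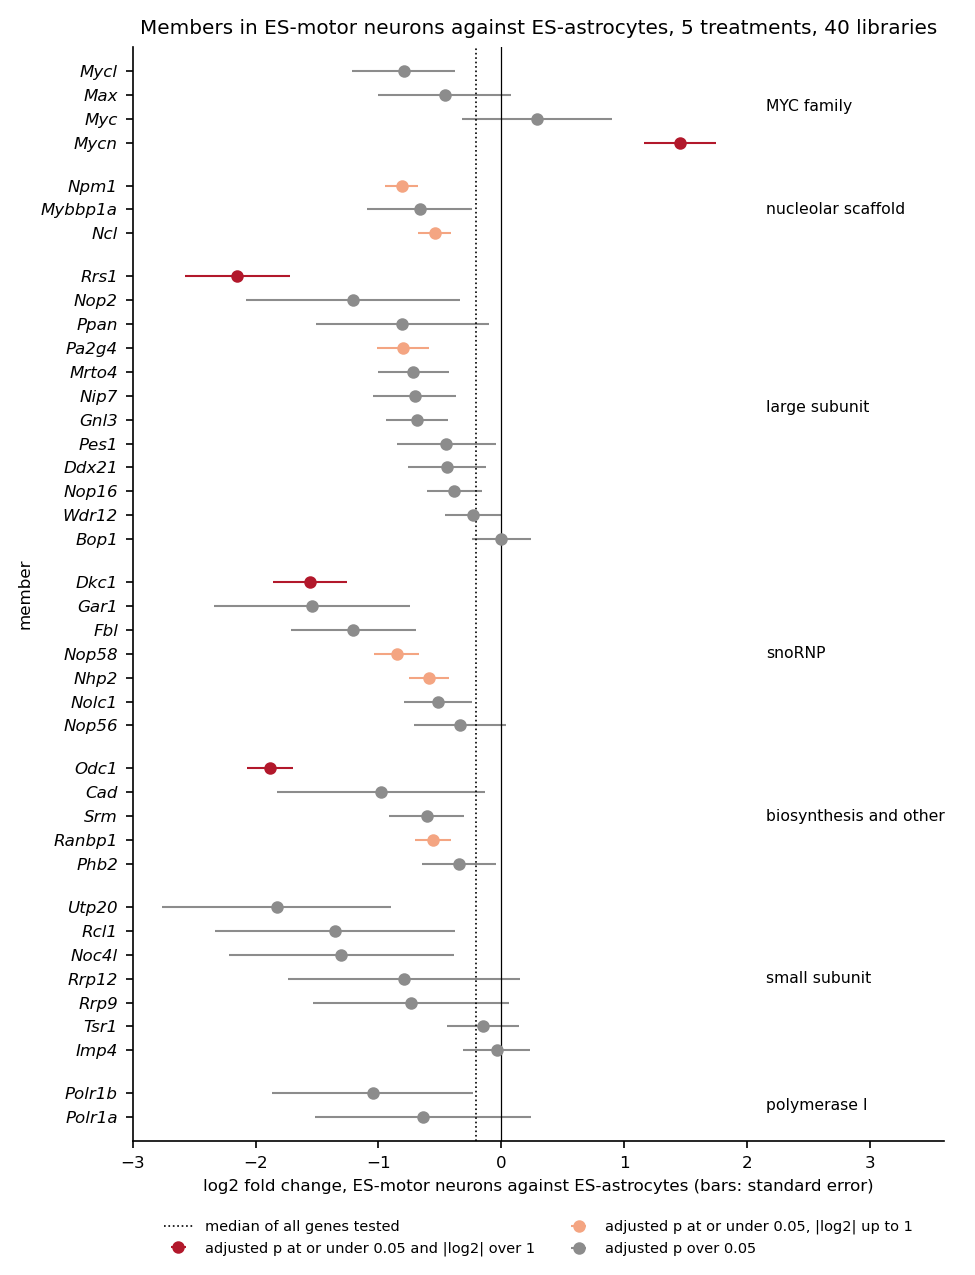
The horizontal axis gives the log2 fold change of ES-motor neurons against ES-astrocytes over 5 treatments for each of the 40 members, grouped by role, with bars of 1 standard error; red points were called, orange points passed the adjusted p alone, and the dotted line marks the median of all genes tested. Mycn is the called member to the right of 0, and Odc1, Rrs1 and Dkc1 are the called members to its left.

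The control libraries alone, 4 against 4 and all part of the comparison over 5 treatments, gave fewer calls. Here 39 members passed the filter, *Rrp9* did not, and 2 were called, both lower in ES-motor neurons, against 2.24% of the 10199 genes tested. *Odc1* had a log2 fold change of −2.26 ± 0.36 (edgeR adjusted p = 0.0100) and *Dkc1* of −2.12 ± 0.46 (adjusted p = 0.0358). *Rrs1* had the lowest value, −2.86 ± 0.90, and was not called (adjusted p = 0.176); DESeq2 and limma-voom called it with adjusted p of 0.000976 and 0.0429, in a range of 0.000976 to 0.476 over all alternatives. Neither *Mycn* (0.82 ± 0.57, adjusted p = 0.721) nor *Myc* (0.79 ± 1.73, adjusted p = 0.953), the members of highest value, was called. *Max* (−0.73 ± 1.28) had the opposite sign with limma-voom (2.69) and without control ES-astrocyte A (0.12), and *Mycl* (−0.64 ± 0.83) with limma-voom (0.30) and without control ES-astrocyte C (0.029). Below 0 were 33 of 39 members (84.6%, against 58.3% of genes tested), with a median of −0.75 against −0.20 over all genes tested. With limma-voom 22 were (56.4%, against 42.0% of genes), with a median of −0.23 against 0.22. Each of the 2 calls was lost when certain single libraries were left out. Both were made without control ES-astrocyte A, where the medians of members and of all genes were −0.53 and −0.02, and *Dkc1* was lost without control ES-astrocyte B, C or D (adjusted p = 0.101, 0.0919 and 0.0944) or control ES-motor neuron A, B, C or D (0.131, 0.0964, 0.141 and 0.153), in a range of 3.85e-06 to 0.193 over all alternatives. *Odc1* was lost without control ES-motor neuron A, B or D (adjusted p = 0.0647, 0.0514 and 0.0575), in a range of 1.52e-09 to 0.0647. So 1 member was called without control ES-astrocyte B, C or D or control ES-motor neuron C, and 0 without control ES-motor neuron A, B or D; in these last 3 fits 3, 5 and 5 members had an unadjusted p under 0.05, and DESeq2 and limma-voom each called 3 with all 8 libraries. Among all genes DESeq2, run without the filter, called 767 of 21637 and limma-voom 464 of 10199. The 8 fits with 1 library left out called 72 to 401 genes. With letter as a block 0 members were called, 4 at an unadjusted p under 0.05, against 41 of 10199 genes.

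Biosynthesis held *Odc1*, the member of smallest p between the cell types. It was at 276, 306, 371 and 257 CPM in control ES-astrocytes A to D and 51.5, 61.0, 84.5 and 53.9 in control ES-motor neurons. Over all treatments its lowest, median and highest levels were 158, 278 and 371 CPM in ES-astrocytes and 8.65, 69.0 and 188 in ES-motor neurons. The groups did not overlap within any of the 5 treatments, and ES-motor neuron TGF-β2 C, at 188 CPM, was the only ES-motor neuron library above the lowest ES-astrocyte library. *Ranbp1* was at 1994, 2936, 3238 and 2732 CPM in control ES-astrocytes and 1779, 1630.0, 1083 and 1752 in control ES-motor neurons, every ES-astrocyte library being higher. The other 3 members of the role, *Srm* (spermidine synthase; −0.61), *Cad* (−0.98) and *Phb2* (a prohibitin of the inner mitochondrial membrane; −0.34), did not pass over 5 treatments. All 5 had a log2 fold change below 0 in that comparison, with a median of −0.61. Members given with a value in the accounts by role, other than the 4 called and the MYC family, were chosen after their values were seen. Counts and medians by role are from the edgeR fits unless another tool is named. In these fits 60.5% of genes tested were below 0 over 5 treatments and 58.3% in the controls.

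Among snoRNP members *Dkc1* was at 99.3, 94.5, 101 and 88.2 CPM in control ES-astrocytes and 26.2, 27.4, 19.2 and 13.8 in control ES-motor neurons. The control groups did not overlap, nor did those with IL-1α and TNF-α, while single ES-astrocyte libraries lay among the ES-motor neuron levels with the other 3 stimuli, such as IL-1β with IL-6 A at 8.16 CPM. *Nhp2* (−0.59) and *Gar1* (−1.54, not past the test) belong to the same H/ACA particle as *Dkc1*. *Nhp2* had lowest, median and highest levels of 92.7, 272 and 399.5 CPM in ES-astrocytes and 67.4, 181 and 302 in ES-motor neurons. *Gar1* was far lower per length, at medians of 3.44 and 0.588 CPM per kb. *Fbl*, the methyltransferase of the box C/D particle, and *Nop56* and *Nop58*, its core proteins, had log2 fold changes of −1.20, −0.34 and −0.85 over 5 treatments, of which the last passed the adjusted p alone in edgeR. DESeq2 also called *Fbl* over 5 treatments. *Nop58* had lowest, median and highest levels of 94.8, 134 and 218 CPM in ES-astrocytes and 0, 69.0 and 187 in ES-motor neurons. *Nolc1*, a chaperone of snoRNP assembly, had a value of −0.52 and did not pass. All 7 snoRNP members were below 0 in both comparisons, with a median of −0.85 over 5 treatments and −0.94 in the controls.

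Of the large subunit factors *Rrs1*, which joins the 5S particle to the growing subunit, had the lowest log2 fold change. Its level was 40.7, 25.3, 29.1 and 44.3 CPM in control ES-astrocytes and 5.42, 6.02, 7.68 and 0.953 in control ES-motor neurons. The groups did not overlap in the controls or with C1Q and C5, and overlapped with the other 3 stimuli; 4 ES-motor neuron libraries had no *Rrs1* count. *Bop1*, *Pes1* and *Wdr12* form 1 complex that matures the large subunit. Their values over 5 treatments were 0.00, −0.45 and −0.23, none past the test. *Pa2g4* had lowest, median and highest levels of 74.0, 144 and 227 CPM in ES-astrocytes and 0, 70.1 and 177 in ES-motor neurons. *Gnl3* (−0.69, adjusted p = 0.0523), *Mrto4* (−0.72, adjusted p = 0.0791) and *Nip7* (−0.71, adjusted p = 0.152) had an unadjusted p under 0.05 and did not pass. The remaining members, *Nop2*, an rRNA methyltransferase (−1.21), *Ppan* (−0.81), the helicase *Ddx21* (−0.44) and *Nop16* (−0.38), did not pass either. In this role 11 of 12 members were below 0 in each comparison, with medians of −0.70 over 5 treatments and −0.75 in the controls. *Bop1* was at 99.8, 12.6, 0.364 and 9.23 CPM in control ES-astrocytes, so its value in the controls, −1.65 ± 1.28, came with control A far above the rest.

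Of the nucleolar scaffold, *Npm1* was at 938, 533, 467 and 531 CPM in control ES-astrocytes and 380.5, 403, 273 and 307 in control ES-motor neurons. Every ES-astrocyte library was higher in the controls, and the lowest, median and highest over 5 treatments were 388, 526 and 938 CPM against 135, 287 and 472. *Ncl*, the nucleolin gene, was at 222, 371, 363 and 271 CPM in control ES-astrocytes and 250.3, 178, 181 and 192 in control ES-motor neurons, the groups overlapping at control ES-astrocyte A. *Mybbp1a*, which binds MYB and sits in the nucleolus, had values of −0.66 ± 0.43 over 5 treatments and −2.05 ± 1.11 in the controls, neither past the test.

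Small subunit factors other than *Imp4* and *Tsr1* were measured at low levels. At least 1 count was found in 17 of 20 ES-astrocyte and 8 of 20 ES-motor neuron libraries for *Utp20*, 12 and 8 for *Rrp12*, 13 and 9 for *Noc4l*, 13 and 10 for *Rcl1*, and 15 and 12 for *Rrp9*. ES-motor neurons thus had fewer libraries with a count for each of these 5, at lower depth. *Imp4*, of the small subunit processome, was found in all 40 libraries, with lowest, median and highest levels of 2.45, 77.5 and 148 CPM in ES-astrocytes and 22.5, 61.1 and 159 in ES-motor neurons. Of the 7, all were below 0 over 5 treatments (median −0.79) and none passed the test (edgeR, with 0 at an unadjusted p under 0.05; DESeq2 0, limma-voom 0), the lowest being *Utp20* at −1.83 ± 0.93 (adjusted p = 0.190), which was called when all 40 libraries were in 1 fit. In the controls 3 of the 6 that passed the filter were below 0. Both RNA polymerase I subunits, *Polr1a* (−0.64 ± 0.88) and *Polr1b* (−1.05 ± 0.82), did not pass. *Polr1a* had a count in 15 and 13 of 20 libraries and *Polr1b* in 17 and 14, with medians of 5.10 and 2.10 CPM and of 8.24 and 5.46 CPM in ES-astrocytes and ES-motor neurons.

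**Figure D2:**
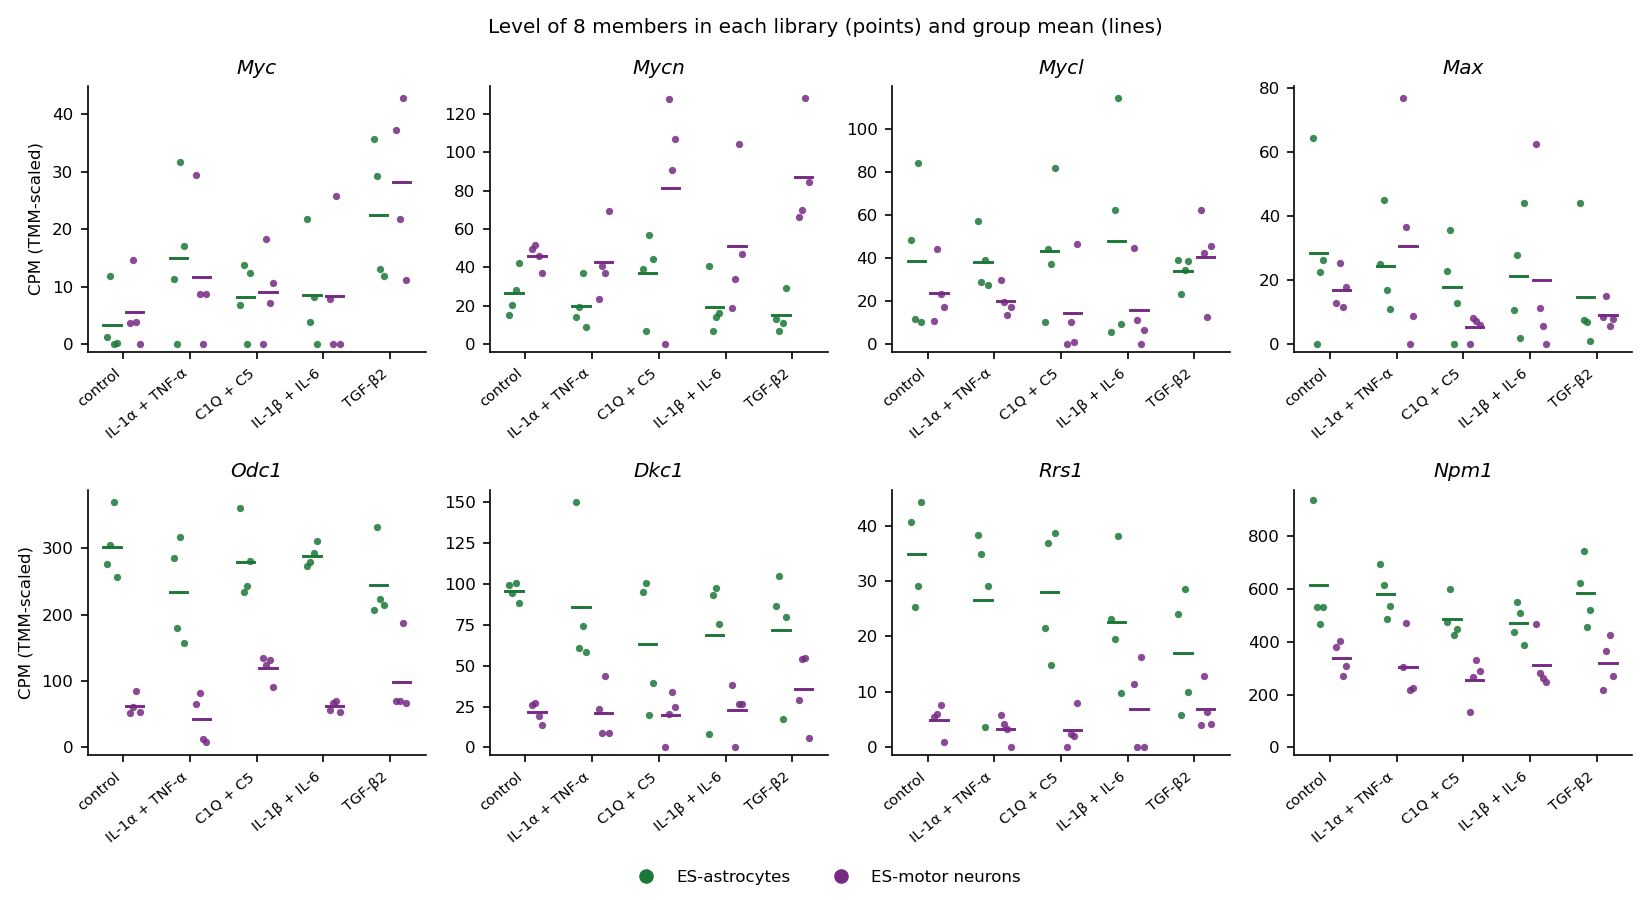
Each panel gives the CPM of 1 of 8 members (Myc, Mycn, Mycl, Max, Odc1, Dkc1, Rrs1 and Npm1) in the 4 libraries of each of the 10 groups, as points, with a line at the group mean. Odc1 is higher in every ES-astrocyte library than in any ES-motor neuron library of the same treatment, while Myc, Mycl and Max overlap.

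Wider lists of the pathway, holding genes outside the 40 members, were counted in the same fits over 5 treatments. Of 15 tested MYC network genes 3 were lower in ES-motor neurons, *Pim1*, a kinase (−1.73 ± 0.35), *Mxd3*, a MAX dimerization protein (−2.44 ± 0.57), and *Skp2*, a ubiquitin ligase subunit (−2.17 ± 0.70), with a list median of −0.14 against −0.21 over all genes tested. Of 26 polyamine and nucleotide synthesis genes 7 were lower (median −0.51), among them thymidylate synthase *Tyms* (−1.96 ± 0.22) and the purine enzyme *Paics* (−1.47 ± 0.17). RNA polymerase I and III subunits and factors gave 1 call of 31 (median −0.24), *Polr3g*, a polymerase III subunit, which was higher (2.62 ± 0.94). SnoRNP assembly gave 1 lower of 10 (*Ruvbl1*, −1.44 ± 0.35; median −0.33). Small subunit processing gave 2 lower of 41 (*Ddx52*, −1.12 ± 0.22, and *Bms1*, −1.50 ± 0.40; median −0.41), and large subunit assembly 2 lower of 44 (*Ebna1bp2*, −1.14 ± 0.28, and *Ftsj3*, −1.58 ± 0.54; median −0.27). Among all genes tested in this comparison 14.9% were called. Calls were lost without the libraries of 1 letter for *Skp2* (B, C or D, adjusted p = 0.160, 0.172 and 0.0505), *Polr3g* (A, B or D, 0.0589, 0.156 and 0.205), *Ftsj3* (A, B or D, 0.0931, 0.109 and 0.246), *Bms1* (D, 0.0959) and *Ebna1bp2* (B, 0.0506). Over all alternatives the adjusted p ranged 0.0105 to 0.172 for *Skp2*, 1.74e-06 to 0.205 for *Polr3g*, 0.00516 to 0.246 for *Ftsj3*, 0.000446 to 0.132 for *Bms1* and 0.000143 to 0.0506 for *Ebna1bp2*. Without the shallow libraries *Skp2*, *Polr3g*, *Bms1* and *Ftsj3* were also lost, as were *Polr3g* and *Ftsj3* with no filter and *Ftsj3* with limma-voom and with letter as a block. *Ddx52* was lost without letter D, at a log2 fold change of −0.98, and with limma-voom, at −0.95; its adjusted p ranged 8.92e-07 to 0.00955.

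In the control libraries, where 2.24% of all genes tested were called, the same lists gave fewer calls. Polyamine and nucleotide synthesis gave 1 of 23, *Tyms*, which was lower in ES-motor neurons (−2.62 ± 0.50), at a median of −0.96 against −0.20 over all genes tested. *Tyms* was lost without control ES-astrocyte B or C (adjusted p = 0.0529 and 0.0519) or control ES-motor neuron A, B or C (0.0652, 0.0773 and 0.0877), in a range of 2.65e-05 to 0.105 over all alternatives. With edgeR, 0 genes were called of 15 in the MYC network (median 0.57; 0 at an unadjusted p under 0.05), 0 of 29 for polymerase I and III (−0.34; 1) and 0 of 8 for snoRNP assembly (−0.81; 1). Small subunit processing gave 0 of 41 (−0.52; 1 at an unadjusted p under 0.05) and large subunit assembly 0 of 40 (−0.28; 4). Lists were not counted with DESeq2 or limma-voom.

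Cell cycle genes and markers of other cells moved with the cell types too. Of 24 cell cycle genes 21 were lower in ES-motor neurons over 5 treatments (median −2.73), among them *Ccnd1*, the cyclin of G1 phase (−5.73 ± 0.32), *Top2a*, a topoisomerase of dividing cells (−6.94 ± 0.40), and *Ccnb1*, the cyclin of mitosis (−7.42 ± 0.46). In the controls 13 of 23 were lower (median −3.07). The summed level of the 24 genes was 5551, 4664, 4118 and 4459 CPM in control ES-astrocytes, with *Cdk4* the most abundant by mean. *Cdk4* was at 2159, 401, 639 and 465 CPM in control ES-astrocytes A to D and *Cdkn1b* at 1.81, 1341, 307 and 925, so *Cdkn1b* was higher in B and D. In control ES-motor neurons the sum was 1553, 1392, 818 and 1555 CPM, with *Cdkn1b* the most abundant by mean and *Cdc6*, *Cdt1*, *Aurkb* and *Bub1* at 0. Over 5 treatments it was 3183 to 5551 CPM in ES-astrocytes and 337 to 1647 in ES-motor neurons, with no overlap. The list also holds the cell cycle inhibitors *Cdkn1a*, *Cdkn1b* and *Cdkn1c*, so its sum is not a level of division genes alone. *Cdkn1b* averaged 644 CPM in control ES-astrocytes and 615 in control ES-motor neurons. Of the fibroblast markers 4 were tested over 5 treatments and all 4 were lower in ES-motor neurons, with a summed level of 118 to 1124 CPM against 0 to 67.4. Astrocyte markers gave 6 lower and 1 higher (*Sox9*) of 8 tested, with sums of 633 to 3571 against 0 to 1261 CPM. Motor neuron markers gave 7 higher and 1 lower of 10, with *Nefl* the most abundant in ES-motor neurons, with sums of 225 to 630.3 against 1616 to 5841 CPM. Pan-neuronal markers gave 3 higher of 10, with *Stmn2* the most abundant, with sums of 1996 to 4584 against 3098 to 10652 CPM, and *Stmn2* was at 542, 1109, 743 and 887 CPM in control ES-astrocytes. The part of the cell cycle, of other cell types, of depth and of the index primer in the differences of *Mycn*, *Odc1*, *Rrs1* and *Dkc1* was not tested.

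In ES-astrocytes each stimulus was compared with the same 4 control libraries, so the 4 comparisons share them. IL-1β with IL-6 gave 0 calls among the 37 members that passed the filter, against 0% of 10240 genes tested (0 at an unadjusted p under 0.05; members called by DESeq2 0 and by limma-voom 0). The median log2 fold change was −0.41 against −0.07 over all genes tested, and 26 of 37 members (70.3%) were below 0, against 54.5% of genes. Over all genes, 119 (1.16%) had an unadjusted p under 0.05, DESeq2 called 56 and limma-voom 0. Few genes of any kind passed that limit in this fit, and the 0 of 37 members is near their share. Without control ES-astrocyte A these medians were −0.09 and 0.01, with 21 of 37 members (56.8%) below 0, against 49.3% of genes. *Mrto4*, a factor of ribosomal stalk assembly, was at 116, 62.6, 64.5 and 50.9 CPM in control libraries A to D and 8.84, 18.1, 63.9 and 21.5 with IL-1β and IL-6. Stimulated library C lay among the controls and the other 3 below them; the log2 fold change was −1.38 ± 0.66 (adjusted p = 1.00). *Pa2g4*, the EBP1 growth regulator, was at 227, 157, 153 and 169 CPM in the controls and 138, 128, 74.0 and 107 with the stimulus (−0.64 ± 0.35, adjusted p = 1.00). *Nop16* was at 148, 115, 146 and 187 CPM in the controls and 141, 103, 52.9 and 88.6 with the stimulus (−0.61 ± 0.39, adjusted p = 1.00). For *Pa2g4* the stimulated libraries were all below the lowest control, and for *Nop16* library A overlapped. *Ncl* (−0.17 ± 0.31), *Npm1* (−0.37 ± 0.34), *Odc1* (−0.05 ± 0.28) and *Ranbp1* (−0.11 ± 0.34) did not pass the test, and the last pair changed sign without control ES-astrocyte C (*Odc1* 0.10, *Ranbp1* 0.014).

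The other 3 stimuli gave no call among members in ES-astrocytes either. With IL-1α and TNF-α 39 members passed the filter and 0 were called by edgeR, against 0% of 10444 genes (0 at an unadjusted p under 0.05; members called by DESeq2 0 and by limma-voom 0). *Utp20*, of the small subunit processome, had the smallest p, with 2.98, 11.5, 2.19 and 0.342 CPM in the controls and 35.4, 10.5, 5.05 and 50.05 with the stimulus (2.61 ± 1.27, adjusted p = 1.00). Stimulated libraries A and D were above every control and B and C among them. For C1Q with C5 0 of 40 were called, against 0% of 10865 genes (1 at an unadjusted p under 0.05; members called by DESeq2 0 and by limma-voom 0). *Wdr12* had the smallest p there, at 172, 174, 136 and 157 CPM in the controls and 113, 67.9, 80.1 and 20.0 with the stimulus (−1.16 ± 0.50, adjusted p = 1.00). Its stimulated libraries were all lower, D most so. TGF-β2 gave 0 of 40, against 0% of 10794 genes (0 at an unadjusted p under 0.05; members called by DESeq2 0 and by limma-voom 0). *Myc* had the smallest p, and its levels were 1.17, 11.8, 0 and 0.171 CPM in the controls and 35.7, 29.3, 12.98 and 11.9 with TGF-β2. The lowest TGF-β2 library, D, was just above the highest control, B, and the fit gave 2.80 ± 1.55 (adjusted p = 1.00). Medians of members and of all genes were −0.17 and −0.08 with IL-1α and TNF-α, −0.16 and −0.07 with C1Q and C5, and −0.15 and −0.06 with TGF-β2. Below 0 were 26 of 39, 25 of 40 and 25 of 40 members (66.7, 62.5 and 62.5%), against 55.9, 53.8 and 54.2% of genes. The sign of these member medians was not stable. Without control ES-astrocyte A they were −0.02, 0.12 and −0.03 (0.03, 0.08 and 0.07 for all genes), with 19 of 38, 18 of 40 and 21 of 40 below 0, against 48.2, 46.4 and 46.9% of genes. With limma-voom they were 0.10, 0.44 and 0.26 (0.11, 0.11 and 0.22 for all genes), and with letter as a block that of C1Q with C5 was 0.06. In the order of these 3 stimuli, 93, 106 and 136 genes (0.890, 0.976 and 1.26%) had an unadjusted p under 0.05 in edgeR. DESeq2 called 25, 40 and 58 genes, and limma-voom 0. Without ES-astrocyte C1Q with C5 D, 0 members were called in that comparison (1 at an unadjusted p under 0.05), at medians of −0.28 and −0.13.

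For ES-motor neurons a stimulus is the label of the library, and the labels do not state how these cells were exposed to it. By the paper's methods, ES-astrocytes were stimulated first and sorted ES-motor neurons were then plated onto them. Both cell types were sequenced after this co-culture. The paper names a small risk of leftover mediators in the medium at plating, which it considers likely negligible. ES-motor neurons had fewer members past the filter. The filter removed *Myc*, *Mycl* and *Max* with IL-1α and TNF-α, and *Myc* with C1Q and C5 and with IL-1β and IL-6. Removed members have no test in these comparisons. The 4 ES-motor neuron comparisons also share 1 set of control libraries. C1Q with C5 gave 0 calls of 26 members by edgeR, against 0% of 7348 genes (2 at an unadjusted p under 0.05; members called by DESeq2 0 and by limma-voom 0). *Mycn* had the smallest p, at 49.7, 51.4, 46.1 and 37.2 CPM in the controls and 0, 128, 91.1 and 107 in the C1Q with C5 libraries (1.14 ± 0.46, adjusted p = 0.997). C1Q with C5 B to D were above every control, and A is the library of 6557 counts. Without it the medians of members and of all genes were −0.07 and −0.03, the log2 fold change of *Mycn* was 1.24 and 0 members were called (3 at an unadjusted p under 0.05). With TGF-β2 0 of 29 members were called by edgeR, against 0.0126% of 7947 genes, which is 1 gene outside the members; 3 members had an unadjusted p under 0.05, DESeq2 called 1 (*Polr1b*) and limma-voom 0. *Polr1b*, the second largest subunit of RNA polymerase I, was at 8.13, 6.73, 26.9 and 14.3 CPM in the controls and 0, 0, 0 and 0.856 with TGF-β2. The TGF-β2 libraries held 1 *Polr1b* count in all against 178 in the controls, so *Polr1b* passed the filter on its control counts. On the same scale 3 counts were 12.4, 0.257, 2.10 and 2.57 CPM in TGF-β2 A to D, so the 0 of A lies under a floor above controls A and B. *Myc* was named there after its values were seen, at 3.61, 14.6, 3.84 and 0 CPM in the controls and 37.2, 21.7, 42.8 and 11.1 with TGF-β2 (2.22 ± 1.02, adjusted p = 0.999). TGF-β2 D lay among the controls and the other 3 above them.

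With IL-1α and TNF-α, 4 ES-motor neuron libraries of low depth left 20 members past the filter and 0 called, against 0% of 4479 genes (1 at an unadjusted p under 0.05; members called by DESeq2 0 and by limma-voom 0). *Gnl3*, the nucleostemin gene, had the smallest p and was at 32.5, 44.2, 46.1 and 102 CPM in the controls and 17.7, 28.0, 10.04 and 17.3 in the IL-1α with TNF-α libraries (−1.45 ± 0.62, adjusted p = 0.990). These 4 libraries were all below the lowest control, but A to D held 3, 13, 3 and 2 *Gnl3* counts. IL-1β with IL-6 gave 0 of 30, against 0% of 8327 genes (0 at an unadjusted p under 0.05; members called by DESeq2 0 and by limma-voom 0). *Ppan*, a large subunit factor, was at 0.904, 6.53, 3.84 and 2.86 CPM in the controls and 12.98, 11.3, 13.5 and 13.4 in the IL-1β with IL-6 libraries (1.82 ± 1.05, adjusted p = 1.00). The groups did not overlap, at low counts. Medians of members and of all genes were 0.07 and 0.03 with IL-1α and TNF-α, −0.15 and −0.06 with C1Q and C5, 0.08 and −0.01 with IL-1β and IL-6, and 0.01 and 0.00 with TGF-β2. With limma-voom the member medians were −0.06, −0.07, −0.16 and −0.09, so 3 of the 4 changed sign, and that of C1Q with C5 was 0.08 without control ES-motor neuron D. In the same order 143, 322, 98 and 221 genes (3.19, 4.38, 1.18 and 2.78%) had an unadjusted p under 0.05 in edgeR. DESeq2 called 1, 0, 1 and 17 genes, and limma-voom 0. The size of difference that could be detected at this depth is not given here.

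**Figure D3:**
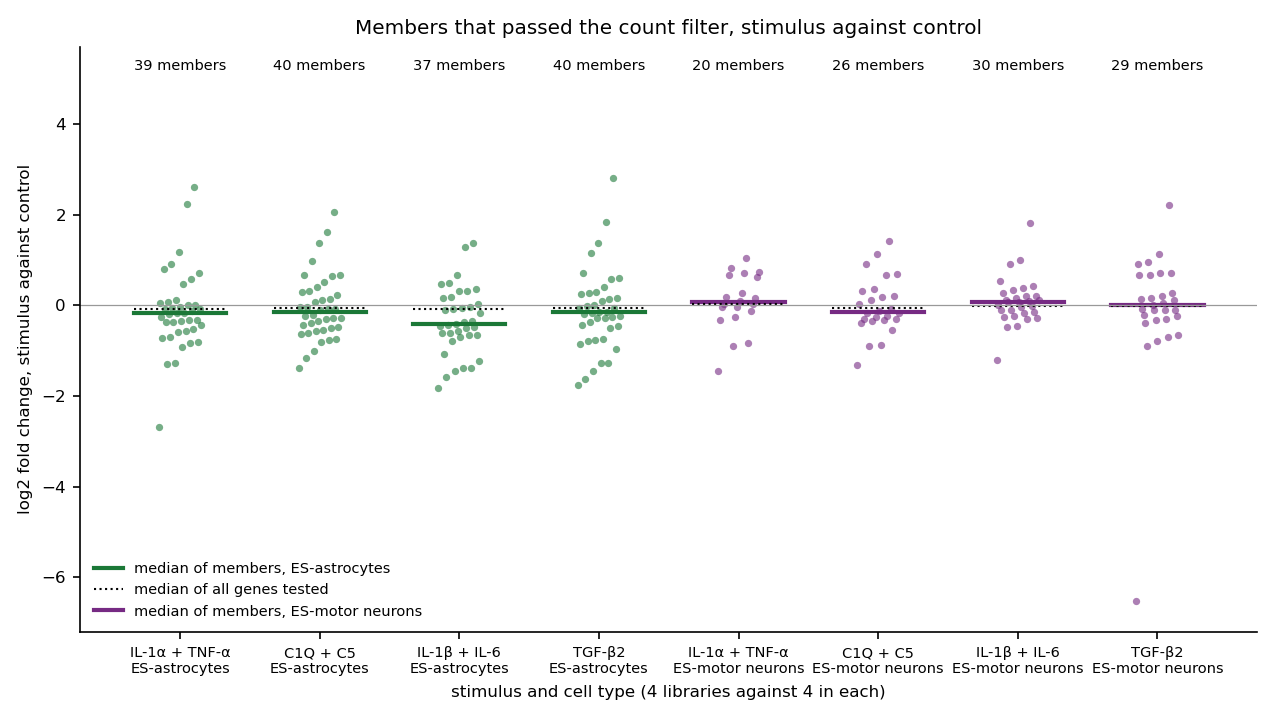
Points give the log2 fold change of each tested member against control in the 4 stimuli, for ES-astrocytes (39, 40, 37 and 40 members) and ES-motor neurons (20, 26, 30 and 29), with lines at the median of the members and of all genes tested. The members spread to both sides of 0 in each comparison, and none was called by edgeR; DESeq2 called Polr1b in ES-motor neurons with TGF-β2.

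The difference between libraries labelled IL-1β with IL-6 and control libraries was compared between the 2 cell types as an interaction. ES-astrocytes were stimulated for 24 hours before ES-motor neurons were plated onto them, so the 2 cell types did not meet the stimulus alike. By edgeR 0 of 40 members were called, against 0% of 12104 genes (0 at an unadjusted p under 0.05; members called by DESeq2 0 and by limma-voom 0). Over all genes 552 (4.56%) had an unadjusted p under 0.05, DESeq2 called 24 and limma-voom 0. The median was 0.27 for members and 0.04 for all genes, and −0.01 and −0.32 without the libraries of letter A. *Phb2* had the smallest p (1.52 ± 0.94, adjusted p = 1.00), and its value was −0.77 without letter A, where control ES-astrocyte A stood at 332 CPM and ES-motor neuron IL-1β with IL-6 A at 202. Within plate 2, which holds 3 stimuli, IL-1β with IL-6 was also set against the other stimuli, a choice made after seeing the data. Against C1Q with C5, edgeR called 0 of 40 members in ES-astrocytes and 0 of 27 in ES-motor neurons, with 1 and 0 at an unadjusted p under 0.05. Against TGF-β2 it called 0 of 40 and 0 of 29, with 0 and 1 at an unadjusted p under 0.05. The share of genes called was 0% in these 4 comparisons, and DESeq2 and limma-voom were not run for them. In the order given, 1.67, 3.05, 2.24 and 2.02% of genes had an unadjusted p under 0.05 in edgeR. In ES-astrocytes the medians of members and of all genes were −0.33 and −0.06 against C1Q with C5, and −0.23 and −0.04 against TGF-β2. In ES-motor neurons these medians were 0.03 and 0.10 against C1Q with C5, and 0.003 and −0.01 against TGF-β2.

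Promoters were read for the E-box CACGTG, the letters that MYC and MAX dimers are known to bind, which reads the same on both strands. Windows of 300 bases around the gene start came from a table of RefSeq promoters (build GRCm38.p6). The table used held 33 of the 40 members, and *Rrs1*, *Npm1*, *Myc*, *Fbl*, *Srm*, *Rrp12* and *Bop1* were not in it. CACGTG was in 7 of the 33 (21.2%), namely *Imp4*, *Nop2*, *Utp20*, *Pes1*, *Mybbp1a*, *Tsr1* and *Max*, against 7.15% of all 32851 promoters and 8.09% of 27025 genes with a promoter. Of the 4 members called between the cell types, *Mycn*, *Odc1* and *Dkc1* were in the table without it. With CATGTG (on the other strand CACATG) also counted, 11 of 33 held a match (33.3%), against 20.4% of all promoters and 22.7% of genes, and *Dkc1* was among the 11. A match describes letters in the window, not a bound site. Sequence outside the 300 bases was not read, so the lack of a match holds for the window only. The sequences of those 3 called members are shown with those of *Max* and *Pes1*, the latter as examples with the E-box, at chr12:12941787-12942086 (minus strand), chr12:17544623-17544922 (plus), chrX:75095604-75095903 (plus), chr12:76962199-76962498 (minus) and chr11:3963725-3964024 (plus). Each is written 5′ to 3′ on the gene's strand, in lower case, with capitals marking CACGTG or CATGTG on either strand.
Mycn: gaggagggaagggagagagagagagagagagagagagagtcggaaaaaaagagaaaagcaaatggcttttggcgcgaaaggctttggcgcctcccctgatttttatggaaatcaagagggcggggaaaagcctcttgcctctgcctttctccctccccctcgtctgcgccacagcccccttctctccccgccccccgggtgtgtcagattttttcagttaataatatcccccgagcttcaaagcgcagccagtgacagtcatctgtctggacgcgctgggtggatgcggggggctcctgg
Odc1: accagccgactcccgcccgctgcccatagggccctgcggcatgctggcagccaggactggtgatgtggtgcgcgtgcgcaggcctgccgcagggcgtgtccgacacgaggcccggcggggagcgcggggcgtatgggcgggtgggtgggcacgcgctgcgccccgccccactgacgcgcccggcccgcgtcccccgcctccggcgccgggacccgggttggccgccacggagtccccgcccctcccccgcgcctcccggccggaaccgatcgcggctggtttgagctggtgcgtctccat
Dkc1: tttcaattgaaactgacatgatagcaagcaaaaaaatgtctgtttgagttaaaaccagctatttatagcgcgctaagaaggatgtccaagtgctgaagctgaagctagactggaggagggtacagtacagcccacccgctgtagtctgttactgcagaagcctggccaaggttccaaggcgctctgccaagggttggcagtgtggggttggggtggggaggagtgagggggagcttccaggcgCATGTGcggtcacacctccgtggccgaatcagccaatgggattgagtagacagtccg
Max: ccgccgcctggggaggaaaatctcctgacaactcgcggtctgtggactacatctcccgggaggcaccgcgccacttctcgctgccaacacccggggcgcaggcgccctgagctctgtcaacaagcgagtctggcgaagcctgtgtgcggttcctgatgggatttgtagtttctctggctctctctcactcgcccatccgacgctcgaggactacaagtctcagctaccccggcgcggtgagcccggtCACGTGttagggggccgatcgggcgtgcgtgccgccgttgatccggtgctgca
Pes1: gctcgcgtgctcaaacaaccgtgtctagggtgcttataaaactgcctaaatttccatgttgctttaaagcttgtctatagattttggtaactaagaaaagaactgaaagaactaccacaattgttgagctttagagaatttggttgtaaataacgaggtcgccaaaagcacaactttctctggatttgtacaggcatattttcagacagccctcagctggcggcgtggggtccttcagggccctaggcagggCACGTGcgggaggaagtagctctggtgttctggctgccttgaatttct

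Coordinates of the key genes are from GENCODE M21 on build GRCm38. The MYC family genes are *Myc* (ENSMUSG00000022346, chromosome 15, 61985391 to 61990374), *Mycn* (ENSMUSG00000037169, chromosome 12, 12936093 to 12941914), *Mycl* (ENSMUSG00000028654, chromosome 4, 122995652 to 123002485) and *Max* (ENSMUSG00000059436, chromosome 12, 76937269 to 76962201). The called members are, beside *Mycn*, *Odc1* (ENSMUSG00000011179, chromosome 12, 17544794 to 17551505), *Dkc1* (ENSMUSG00000031403, chromosome X, 75095854 to 75109777) and *Rrs1* (ENSMUSG00000061024, chromosome 1, 9545408 to 9547455). The most abundant member is *Ranbp1* (ENSMUSG00000005732, chromosome 16, 18239784 to 18248732). *Mycn*, *Odc1* and *Max* lie on chromosome 12. Exons of *Dkc1* overlap *Mpp1* on the opposite strand, and those of *Ranbp1* overlap Gm49776 on the same strand and *Trmt2a* on the opposite one. *Ncl*, *Nop56*, *Nop58*, *Gnl3* and *Ppan* carry small RNA genes on their own strand. Since the strand setting of the counting was not stated, how reads in such overlaps were assigned is uncertain. None of *Myc*, *Mycn*, *Mycl*, *Max*, *Odc1* and *Rrs1* has an exon overlap with another annotated gene.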

How the data were processed

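RNA counts per Ensembl gene were deposited by the authors for 40 mouse libraries, 4 per group in 10 groups; reads had been mapped with STAR at a sequencing facility, and the STAR version, counting tool, strand setting, build and annotation were not stated in the sources used here. Gene symbols came from GENCODE M21, which named 55227 of 55487 genes; the other 260 held 0.117% of counts. Each comparison was fitted on the whole table with edgeR 4.0.16 in R 4.3.3 (default filterByExpr, TMM factors, robust quasi-likelihood), and p was adjusted by Benjamini-Hochberg over all genes tested. Calls needed an adjusted p up to 0.05 with a log2 fold change beyond 1 in either direction. All DESeq2 fits kept every gene with at least 1 count in the libraries compared, while limma-voom used filterByExpr. Alternatives were DESeq2 1.42.0, limma-voom 3.58.1 with quality weights, DESeq2 size factors, no filter, 1 fit of all 40 libraries, letter as a block, no limit on the fold, no libraries under 20% of the median total, each library or letter left out, and, chosen after seeing the data, the second index primer as a term and IL-1β with IL-6 against the other stimuli of plate 2. Letters were not treated as pairs: correlations between libraries of 1 letter ran from −0.22 to 0.39 over 52 pairs, with a median of 0.02. Tables, promoter matches and plots were made with matplotlib 3.10.9, scipy 1.17.1, numpy 2.4.6 and pandas 2.3.3 under Python 3.11.15. The fits were tested on simulated data, and no result of that is given here. Total counts ran from 6557 to 19717324 per library, and 3 counts set the floor of each. The members and lists were chosen with earlier results of these data known. By a rule set before the fits, members and genes named with values are the MYC family in each cell type, every called member, the 2 members of highest and the 2 of lowest fold change between cell types, the member of smallest p where a stimulus gave no call, for IL-1β with IL-6 in ES-astrocytes also the 3 of smallest p with *Ncl*, *Npm1*, *Odc1* and *Ranbp1*, and at most 3 called genes of each other list. Other members given with values were chosen after their values were seen. The lists were the MYC network, polymerase I and III, snoRNP assembly, small subunit processing, large subunit assembly, polyamine and nucleotide synthesis, cell cycle, stimulus response, and markers of motor neurons, neurons, astrocytes, fibroblasts, the oligodendrocyte lineage, microglia and pluripotency.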

Additional observations from a re-analysis of the deposited data

Results flagged for a closer look

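A library was noted where its gap to the nearest of the other 3 was a large share of its group's range by Dixon's test, which chance does in about 1 in 20 groups; 14 of 158 groups of 4 met this. In control ES-astrocytes these were *Myc* in B (11.8 CPM, highest), and *Npm1* (938) and *Phb2* (332) in A, both highest. In stimulated ES-astrocytes they were *Max* in TGF-β2 A (43.9, highest), *Ncl* in IL-1β with IL-6 A (331, highest), *Nop58* in IL-1α with TNF-α C (103, lowest) and *Odc1* in TGF-β2 B (333, highest). In ES-motor neurons they were *Npm1* in IL-1β with IL-6 A (467, highest), *Odc1* in TGF-β2 C (188, highest), *Polr1b* in TGF-β2 D (0.856, highest, from 1 count) and *Ranbp1* in C1Q with C5 A (606, lowest). Total counts stood apart in ES-astrocyte IL-1α with TNF-α A (14831839), ES-motor neuron control B (19717324) and ES-motor neuron TGF-β2 B (12606121), each the highest of its group.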

How the results depend on the processing

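For the number of members called in each comparison, 158 of 171 alternatives stayed within 1.5 times the value in the report and 13 did not. In the control comparison of cell types the count of 2 became 1 with no filter, 1 with all 40 libraries in 1 fit, 1 without the shallow library (control ES-motor neuron C) and 0 with letter as a block, and 0 to 2 with 1 library left out; DESeq2 and limma-voom called 3. Over 5 treatments the count of 4 became 10 with no limit on the fold and stayed at 4 with letter as a block and without each letter; it was 5 with DESeq2 (*Fbl* added), 5 with limma-voom (*Pa2g4* added) and 5 with all 40 libraries in 1 fit (*Utp20* added). For TGF-β2 in ES-motor neurons DESeq2 called 1 (*Polr1b*) where edgeR called 0 (3 at an unadjusted p under 0.05) and limma-voom 0. Of 706 alternatives for single values 651 kept their direction and side of the threshold, 43 were no longer past it, 4 came to be past it, 7 changed sign and 1 moved. In the control comparison *Mycl* changed sign with limma-voom (0.30) and ranged −1.14 to 0.029 with 1 library left out, above 0 without control ES-astrocyte C; *Max* did so with limma-voom (2.69) and ranged −1.01 to 0.12, above 0 without control ES-astrocyte A. For IL-1β with IL-6 in ES-astrocytes *Odc1* ranged −0.12 to 0.10 and *Ranbp1* −0.23 to 0.014, both above 0 without control ES-astrocyte C, and *Phb2* in the interaction ranged −0.77 to 2.60, below 0 without letter A. The cause was not tested. Promoters with a match went from 7 to 11 when CATGTG was added, by construction. Fits with the second index primer as a term, and comparisons within plate 2, were chosen after seeing the data; with edgeR they called 0 members for each stimulus, with 0 to 3 at an unadjusted p under 0.05, and DESeq2 and limma-voom were not run for them. A permutation test was planned for MYC family members that the filter removed in the control comparison of cell types; it removed none of them there, so there was nothing to test. The fit without shallow libraries could not be run for IL-1α with TNF-α in ES-motor neurons, where all 4 are shallow, and had nothing to leave out in ES-astrocytes. At the depth of the ES-motor neuron libraries, with 20 to 30 members past the filter for each stimulus, low members such as *Polr1a* were often not measurable.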

Other observations

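Genes known to respond to the stimuli were counted as a list of 17, outside the members. Of 10 tested between the cell types over 5 treatments, 2 were called by edgeR as lower in ES-motor neurons, against 14.9% of all genes tested. These were *C3*, the central complement component, and *Saa3*, an acute phase protein. *C3* was at 0 in 13 of 20 ES-astrocyte libraries and reached 27.5 CPM, and it was at 0 in 19 of 20 ES-motor neuron libraries and reached 0.9495 CPM. *Saa3* was at 0 in 12 of 20 ES-astrocyte libraries and reached 196 CPM, and it was at 0 in 18 of 20 ES-motor neuron libraries and reached 4.31 CPM. Both were at 0 in all 8 control libraries, so they passed the filter on counts of stimulated libraries. *Skil*, a regulator of SMAD signalling, was its most abundant gene, and the list summed to 74.5 to 3465 CPM in ES-astrocytes and 201 to 4899.6 in ES-motor neurons. Of the oligodendrocyte lineage markers 3 were tested and 0 called (0 at an unadjusted p under 0.05 by edgeR), with sums of at most 45.5 and 36.6 CPM, and pluripotency markers summed to at most 1.35 and 6.69 CPM in the 2 cell types.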
